A study of Mus musculus with 16 samples.

Results

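Hox genes encode homeodomain transcription factors that give cells along the head-to-tail axis and along the limb their positional identity. In mammals they lie in 4 clusters, HoxA to HoxD, and genes of the same number in different clusters, called paralogs, descend from a common ancestor. Low-numbered genes act towards the head and high-numbered genes towards the tail and the tip of the limb. Mesenchymal and skeletal cells of the adult keep part of the Hox pattern of the place they come from, also in culture. Here the Hox genes were followed in mouse bone marrow stromal cells cultured under osteogenic conditions, the adherent cells of the marrow that can form bone. The members were chosen by name: every probe whose symbol in the platform annotation is Hox, a cluster letter and a number, with the brightest probe over all arrays standing for its gene. This gave 50 probes of 38 genes, of 25697 probes and 16593 genes in all. The clusters contributed 10 genes (HoxA), 10 (HoxB), 9 (HoxC) and 9 (HoxD).

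The series compared 8 Hdac3 CKO cultures with 8 wild type cultures, all grown for 7 days under osteogenic conditions and all on a mixed CD1/C57BL6 background. In the Hdac3 CKO cultures the histone deacetylase gene Hdac3 is deleted by a Cre recombinase under the promoter of Osterix (Osterix1-Cre), a gene of the osteoblast lineage, so the deletion is directed to that lineage and not to every cell in the dish. Whether the wild type animals carried the Cre, the age and sex of the animals, and how many animals gave each culture are not stated in the labels. Total RNA was labelled with biotin and hybridized to an Illumina bead array with probes for mouse transcripts. Arrays are named as in the titles, KO7 or WT5. The title numbers fall into 5 runs of neighbours, each with as many Hdac3 CKO as wild type arrays. Titles 5 and 7 form run 1, those between 13 and 16 run 2, those between 21 and 24 run 3, titles 30 and 32 run 4, and those between 42 and 47 run 5. What a number marks is not stated.

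Hdac3 itself averaged 10.25 ± 0.077 in Hdac3 CKO and 10.42 ± 0.085 in wild type cultures (log2 intensity, SD, n = 8 each) and was lower in Hdac3 CKO in 5 of 5 runs (log2 difference -0.17, limma adjusted p = 0.162 with the runs as a block and 0.932 without). Of 10 measured osteoblast markers 9, all but Dmp1, were above background, and so were all 14 measured macrophage markers. No marker of either list passed the test of genotype (medians of -0.070 and 0.28 log2). With the block 0.218% of all probes passed and without it 0%, so a count of 0 in such lists is no result about them. Higher in Hdac3 CKO were 2 of 10 osteoblast and 13 of 14 macrophage markers. The summed intensity of the macrophage markers ran from 60359 to 85431 in Hdac3 CKO and from 44312 to 84585 in wild type arrays. Of 9 measured adipocyte markers all 9 were higher in Hdac3 CKO (median 0.38). In the fit that blocks on run, where 0.218% of all probes passed, 2 of the 9 did. These were Adipoq and Aqp7, which rose (1.19 and 0.70 log2, limma adjusted p = 0.00105 and 0.0397), and without the block 0 passed. The sum of the 9 adipocyte markers ran from 12170 to 32764 in Hdac3 CKO and from 11179 to 16446 in wild type arrays, while Fabp4, Plin1 and Cidec were at background. Of 6 endothelial, 6 chondrocyte and 6 muscle markers measured 5, 4 and 3 were above background and 0 passed. Higher in Hdac3 CKO were 5, 3 and 4 of them (medians 0.075, 0.031 and 0.039). The part of these other cell types in the Hox values was not tested, apart from a macrophage covariate. The Y-linked gene Eif2s3y was at 5.89 and 6.17 log2 in WT13 and WT14, the only wild type arrays of run 2, and between 8.28 and 9.89 in the other arrays. KO15 and KO16 of run 2 stood at 9.75 and 9.78. Within run 2, genotype and the presence of this Y-linked RNA therefore cannot be told apart. In RNA from a mixed dish, fewer cells of a type and less RNA per cell cannot be told apart.

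The first question was which Hox genes the cultures expressed. Each value is a log2 intensity, and probes differ in brightness for reasons unrelated to abundance, so levels were set against background and not against each other. As background served 1324 probes of olfactory, vomeronasal and trace amine receptor genes, which stromal cells are not known to use. A Hox gene was called above background when its mean over 16 arrays exceeded the 95th percentile of these probes, 6.54 log2. By this rule 18 of 38 Hox genes were above background, compared with 52.2% of all probes. The Hox count takes the brightest probe of each gene, while the share counts every probe, so the units are unlike and favour the Hox genes.

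The genes above background were Hoxa2, Hoxa4, Hoxa5, Hoxa7, Hoxa9, Hoxa11 and Hoxa13 in HoxA (7 of 10) and Hoxb2, Hoxb4, Hoxb5 and Hoxb7 in HoxB (4 of 10). In HoxC they were Hoxc6, Hoxc8, Hoxc9, Hoxc10 and Hoxc13 (5 of 9), and in HoxD only Hoxd8 and Hoxd11 passed the level (2 of 9). Hoxa7, Hoxc6 and Hoxc9, which belong to the trunk-level middle of their clusters, had means of 10.18, 10.52 and 10.07 and lay above the level in every array. So did Hoxa5 (8.94), Hoxb4 (8.59), Hoxc10 (8.14) and Hoxb2 (7.96). Just inside the level were Hoxc8 (6.55), Hoxa2 (6.58) and Hoxd11 (6.59), and just outside it Hoxd13 (6.53) and Hoxc4 (6.48). In each array taken singly, 14 to 20 Hox genes passed that array's own level, 11 genes passed in all 16 arrays and 13 in none. Those in none included Hoxb1, Hoxb8, Hoxb9 and Hoxb13 of HoxB and Hoxd1, Hoxd3, Hoxd4, Hoxd10 and Hoxd12 of HoxD. A probe at background does not show that the transcript is absent, and 1 probe above it does not show that it is present. Of the 3 Hoxa13 probes 1 stood at 7.27 and the others at 6.32 and 6.22. Of the 3 Hoxa9 probes 2 stood at 7.02 and 6.97 and the last at 6.29.

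**Figure D1:**
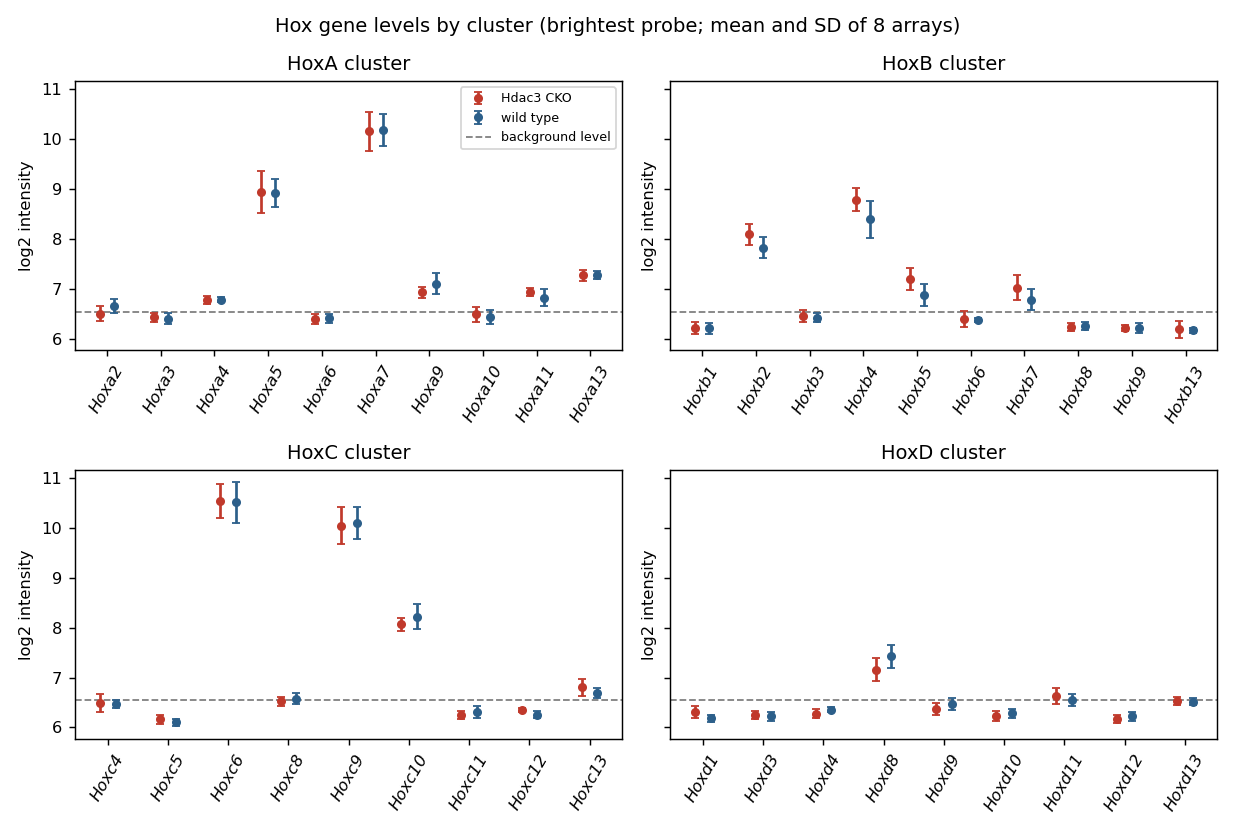
Mean log2 intensity (vertical axis) of the 38 Hox genes, in cluster order, in 8 Hdac3 CKO and 8 wild type arrays, with SD as bars and the background level of 6.54 as a dashed line. Only Hoxd8 and Hoxd11 of HoxD exceed the line, and Hoxb2, Hoxb4, Hoxb5 and Hoxb7 sit higher in Hdac3 CKO; levels of different genes cannot be compared because their probes differ.

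Promoters of a pair of genes described next are given for reference. RefSeq promoter windows of GRCm38.p6, which run from 250 bases before to 50 bases after an annotated start, were held for 22 of the 38 genes. Shown are Hoxd8, which was lower in Hdac3 CKO past the threshold only when the runs were a fixed block, and Hoxb4, which did not pass and is the HoxB gene above background with an entry; Hoxb2, Hoxb5 and Hoxb7 had no entry. Capitals mark matches on either strand to any of 4 motifs, the CCAAT box (CCAAT), the TATA box (TATAAA), the E-box (CACGTG) and a Hox and Pbx type site (TGATNNAT).
Hoxd8 (chr2:74704365-74704664, plus strand): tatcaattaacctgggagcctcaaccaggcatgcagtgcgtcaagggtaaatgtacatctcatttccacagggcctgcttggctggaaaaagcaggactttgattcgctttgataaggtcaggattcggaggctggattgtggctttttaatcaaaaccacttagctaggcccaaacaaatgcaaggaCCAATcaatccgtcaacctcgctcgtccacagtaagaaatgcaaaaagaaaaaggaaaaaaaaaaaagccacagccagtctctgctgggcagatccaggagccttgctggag
Hoxb4 (chr11:96318017-96318316, plus strand): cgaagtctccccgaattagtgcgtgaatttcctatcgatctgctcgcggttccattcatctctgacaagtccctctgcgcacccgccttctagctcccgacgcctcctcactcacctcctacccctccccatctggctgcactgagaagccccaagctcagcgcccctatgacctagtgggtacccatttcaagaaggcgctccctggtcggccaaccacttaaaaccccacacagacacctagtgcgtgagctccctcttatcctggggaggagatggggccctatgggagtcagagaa
Hoxd8 held a single CCAAT, starting 62 bases before the annotated start, and no match to the other motifs, and Hoxb4 held no match to any of the 4. Among all 32851 windows of this length, 37.4% held the CCAAT box, 13.6% the TATA box, 7.15% the E-box and 8.85% the Hox and Pbx type site. The Hoxd8 window had a GC content of 46.7% with 6 CpG dinucleotides and the Hoxb4 window 58.0% with 14 CpG dinucleotides, and the medians of all windows were 52.7% and 7. A match is only a match of letters, and these are reference sequences, not those of the CD1 part of the background.

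The second question was whether loss of Hdac3 changed Hox expression. No Hox gene passed the test without the runs in the fit, and Hoxb5 (higher) and Hoxd8 (lower) passed with the runs as a fixed block. All 4 HoxB genes above background had higher means in Hdac3 CKO in 5 of 5 runs, with log2 differences between 0.23 and 0.40 and a median of 0.30, and the other 6 HoxB genes differed by at most 0.034. In HoxA the 7 differences ran from -0.17 to 0.12 (median -0.0055), in HoxC the 5 ran from -0.15 to 0.11 (median -0.044), and in HoxD the 2 were -0.27 and 0.086. Over all 18 genes above background, 9 were higher and 9 lower, with a median of 0.0076 log2, compared with -0.0059 over all 13419 probes above background. The 20 genes below background differed by at most 0.12.

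Whether single genes passed depended on how the runs were treated. In limma without a block, no Hox gene passed an adjusted p of 0.05 over all 25697 probes, where 0% of probes passed (smallest adjusted p of any Hox gene 0.932). Unadjusted p-values were under 0.05 for 4.74% of all probes and for 7 of the 18 Hox genes above background, where the share over all probes above background was 5.77%. With the 5 runs as a fixed block, Hoxb5 rose and Hoxd8 fell, 2 of 38 Hox genes, where 0.218% of all probes passed, 0.171% higher and 0.0467% lower. Both are among the 18 above background, where 0.417% of all probes above background passed. An unadjusted p under 0.05 was then held by 7 of the 18 Hox genes above background (38.9%), compared with 17.8% of all probes above background. Of these 7, 4 are the HoxB genes above background. The genotype means of Hoxa2 and Hoxc8 lie near the background level, and each exceeded it only in wild type, so their place among the 18 is not independent of the genotype difference.

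**Figure D2:**
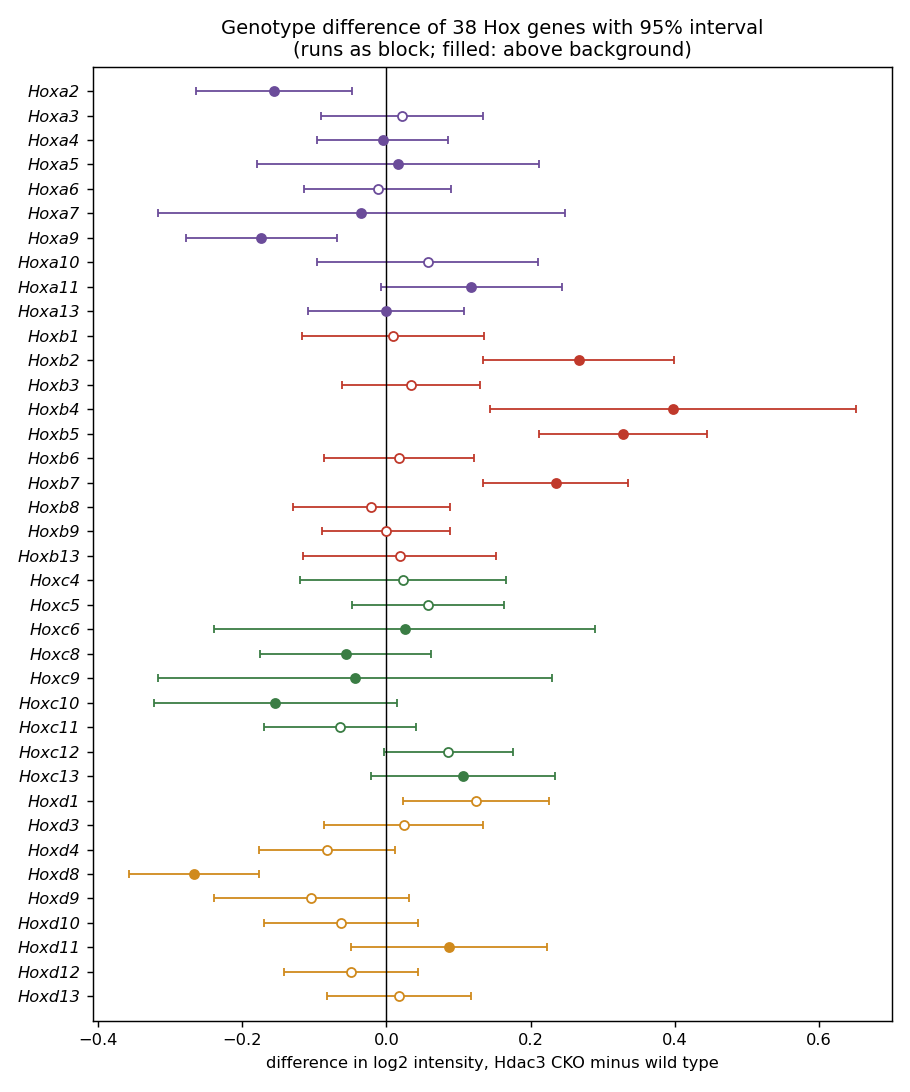
Difference in log2 intensity, Hdac3 CKO minus wild type (horizontal axis), for each of the 38 Hox genes, as point and 95% interval of the limma fit with the runs as a block; filled points are genes above background. The 4 filled HoxB points lie between 0.23 and 0.40 with intervals above 0, and Hoxd8 lies at -0.27.

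Hoxb5, from the middle of HoxB, ranged from 6.90 to 7.47 with a median of 7.16 in Hdac3 CKO arrays, and from 6.52 to 7.08 with a median of 6.95 in wild type arrays. The groups overlapped, but every Hdac3 CKO array exceeded every wild type array of its own run. The means were 7.20 ± 0.21 in Hdac3 CKO and 6.87 ± 0.22 in wild type cultures (SD, n = 8 each). The log2 difference of 0.33 (95% interval 0.21 to 0.45) equals 1.26-fold and had a limma adjusted p of 0.0271 with the runs as a block. Within runs 1 to 5 the difference was 0.12, 0.26, 0.40, 0.37 and 0.41. The exact permutation test (two-sided) gave p = 0.011 when all 12870 arrangements were taken and p = 0.00231 over the 864 arrangements within runs, the smallest these can give.

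Hoxb2, which in the embryo helps to pattern the hindbrain, ranged from 7.77 to 8.43 (median 8.11) in Hdac3 CKO and from 7.51 to 8.06 (median 7.88) in wild type arrays. Its difference was 0.27 (SE 0.0625 with the block and 0.099 without), a 1.20-fold level. It did not pass (limma adjusted p = 0.109 with the block, unadjusted exact permutation p within runs 0.00231). It was 0.39 in run 3 and 0.41 in run 5, and 0.055 to 0.17 in the others.

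Hoxb4, known for its role in blood stem cells, ranged from 8.43 to 9.14 (median 8.77) in Hdac3 CKO and from 7.91 to 8.98 (median 8.38) in wild type arrays. The difference of 0.40 (SE 0.12 with the block and 0.144 without) was 1.32-fold. It did not pass (limma adjusted p = 0.207 with the block, unadjusted exact permutation p within runs 0.0208). It was 0.67 in run 1 and 0.62 in run 3 but 0.094 in run 4 and 0.12 in run 5, where KO46 and KO47 stood at 8.43 and 9.14 and WT42 and WT44 at 8.36 and 8.98.

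Hoxb7 ranged from 6.77 to 7.50 (median 6.96) in Hdac3 CKO and from 6.53 to 7.21 (median 6.79) in wild type arrays. The difference of 0.23 (SE 0.048 with the block and 0.108 without), a 1.18-fold level, did not pass (limma adjusted p = 0.0597 with the block). With single arrays left out, Hoxb7 passed in 1 of 16 fits with the block, the one without KO24 (limma adjusted p = 0.0204). In the other 15 it did not pass (adjusted p up to 0.178). Its within-run differences lay between 0.11 and 0.32, and in run 3 KO24 (6.79) was below WT22 (6.82). Hoxb3 and Hoxb6, which lie among these genes, were at background (means of 6.44 and 6.39), as were the tail-side genes Hoxb8, Hoxb9 and Hoxb13.

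Hoxd8 ranged from 6.91 to 7.46 (median 7.10) in Hdac3 CKO and from 7.13 to 7.73 (median 7.35) in wild type arrays. The groups overlapped across runs, while within each run all Hdac3 CKO arrays lay below all wild type arrays. The means were 7.16 ± 0.23 in Hdac3 CKO and 7.42 ± 0.23 in wild type cultures (SD, n = 8 each), a 0.831-fold level (log2 -0.27, 95% interval -0.36 to -0.18, limma adjusted p = 0.0251 with the block). The within-run differences were -0.13, -0.25, -0.36, -0.13 and -0.33. The unadjusted exact permutation p was 0.0376 over all arrangements and 0.00231 within runs.

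**Figure D3:**
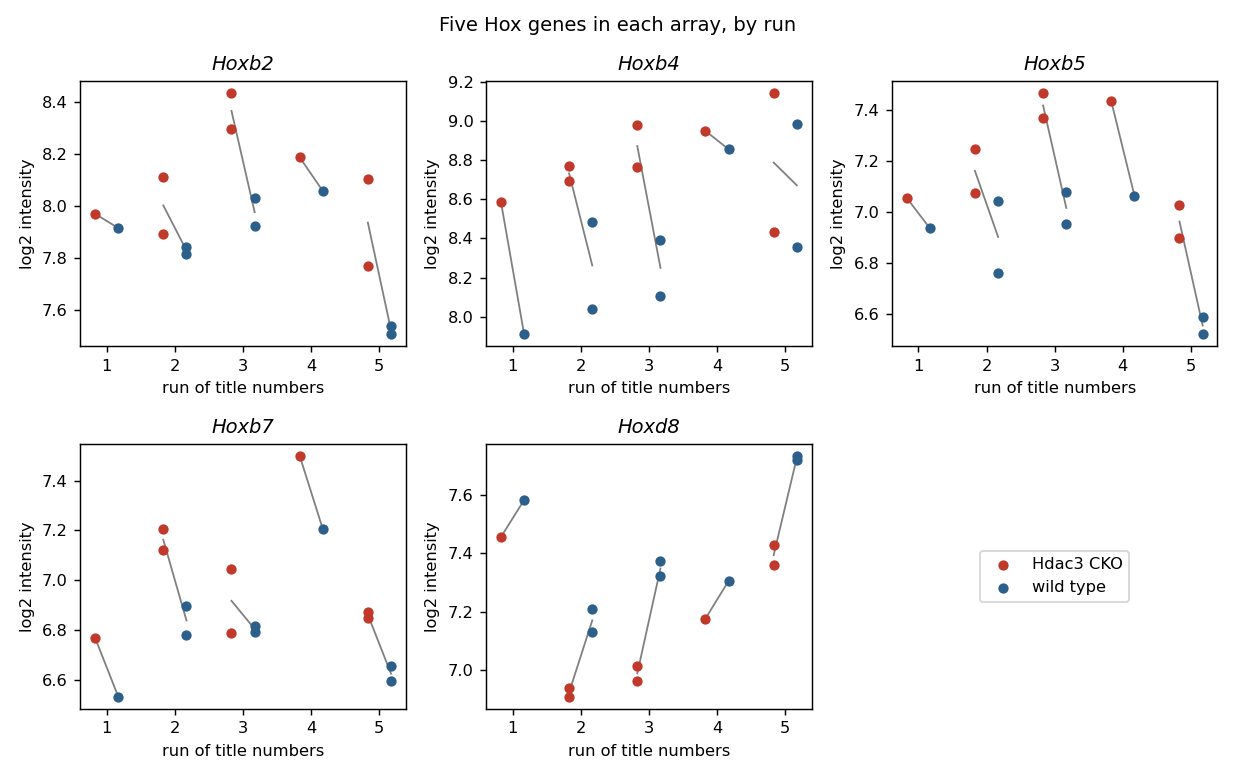
Log2 intensity (vertical axis) of Hoxb2, Hoxb4, Hoxb5, Hoxb7 and Hoxd8 in every array by run (horizontal axis), Hdac3 CKO left of wild type, with lines joining the run means. In all 5 runs the line falls from Hdac3 CKO to wild type for the HoxB genes and climbs for Hoxd8.

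The calls of Hoxb5 and Hoxd8 depended on the fixed block, and leaving out a single array could be enough to lose them. With the runs as a random block their adjusted p was 0.461 and 0.595, and when run means were compared as 5 pairs 0.299 and 0.300 (limma). Without run 2, which holds WT13 and WT14, the differences were 0.35 and -0.27 (adjusted p = 0.114 and 0.247 with the block). Left out singly, Hoxb5 lost its call without KO15, WT14, KO24, WT21 or WT42 (adjusted p up to 0.086) and Hoxd8 without KO15, KO16, WT13, WT21 or WT42 (up to 0.0702), while the differences stayed between 0.31 and 0.36 and between -0.29 and -0.25.

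Paralogs of the genes that passed did not do so. In group 5, Hoxa5, which is known for patterning the neck and lung, had a difference of 0.016 (95% interval -0.18 to 0.21, limma adjusted p = 0.976 with the block) and Hoxc5, at background, one of 0.058 (adjusted p = 0.742). In group 8, Hoxc8 had a difference of -0.057 (95% interval -0.18 to 0.062, adjusted p = 0.783) and Hoxb8, at background, one of -0.021 (adjusted p = 0.934). Whether these differences differ from those of Hoxb5 and Hoxd8 was not tested.

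Among the other genes above background, the smallest p-values with the block were those of Hoxa9, Hoxa2, Hoxa11 and Hoxc10, none of which passed. In limma with the block the unadjusted p of Hoxa9 was 0.0029, below the 0.0044 of Hoxb4. Of the genes at background, Hoxd1 had an unadjusted p of 0.0195 with the block (log2 0.12, higher in 5 of 5 runs, limma adjusted p = 0.323) and Hoxc12 one of 0.059 (log2 0.086, adjusted p = 0.470). Hoxa9 averaged 6.93 ± 0.11 in Hdac3 CKO and 7.11 ± 0.21 in wild type cultures, a difference of -0.17 (limma adjusted p = 0.174 with the block) that was negative in 4 of 5 runs. A second Hoxa9 probe of nearly the same brightness had a difference of -0.016 (adjusted p = 0.962). The third Hoxa9 probe, at background, differed by -0.099 (adjusted p = 0.555). The differences between these probes were not tested. Hoxa2, a head-side gene of HoxA, had a difference of -0.16 (adjusted p = 0.242), and its other probe, at background, one of 0.0046. Hoxc10 had a difference of -0.15 (limma adjusted p = 0.492 with the block, SE 0.0795 with it and 0.093 without), against -0.11 at its second probe. Hoxa11, which patterns the forearm and lower leg, averaged 6.94 ± 0.083 in Hdac3 CKO and 6.83 ± 0.17 in wild type cultures. It was higher in 5 of 5 runs (log2 0.12, adjusted p = 0.482). Of the 18 genes, 5 were higher in every run (27.8%), compared with 5.2% of probes above background, and 1 was lower in every run, compared with 6.98%. The 5 are Hoxa11 and the 4 HoxB genes already described, so their share is no separate result. The Hox shares take the brightest probe of each gene, while the others count every probe.

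Hoxa7, Hoxc6 and Hoxc9 did not pass the test of genotype. Hoxa7 averaged 10.16 ± 0.39 in Hdac3 CKO and 10.19 ± 0.32 in wild type cultures (limma adjusted p = 0.962 with the block), with an interval of the difference from -0.32 to 0.25. Hoxc6 averaged 10.54 ± 0.35 in Hdac3 CKO and 10.51 ± 0.41 in wild type cultures (adjusted p = 0.970). Hoxc9 averaged 10.05 ± 0.36 in Hdac3 CKO and 10.09 ± 0.32 in wild type cultures (adjusted p = 0.947). All 3 were highest in WT13 and lowest in KO46, with ranges over 16 arrays of 1.51, 1.48 and 1.38 log2. Hoxa5 was highest in WT13 as well and lowest in KO47, with a range of 1.16. The mean of the macrophage markers was lowest of the 16 arrays in WT13 (9.75 log2) and highest in KO46 (11.33 log2). Whether these Hox ranges follow it was not tested. Hoxa4 had the smallest range among the genes above background, 0.21, with a genotype difference of -0.0055.

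The means of each cluster were also compared within runs. The mean deviation of the 4 HoxB genes from their own averages was 0.15 ± 0.17 in Hdac3 CKO and -0.15 ± 0.17 in wild type arrays (SD, n = 8 each). Within runs 1 to 5 it was higher in Hdac3 CKO by 0.27, 0.31, 0.38, 0.22 and 0.29. Each of the 4 genes was itself higher in every run, so the sign of their mean was fixed and is no further result. The HoxA mean differed by 0.088, -0.11, 0.046, 0.036 and -0.13 and the HoxC mean by 0.19, -0.19, 0.11, 0.053 and -0.14, so both changed sign between runs. The HoxD mean differed by -0.095, 0.092, -0.18, -0.085 and -0.19. The mean of the macrophage markers was higher by 1.04 in run 2 and 0.21 in run 5 and by 0.0078, 0.031 and 0.042 in runs 1, 3 and 4. Whether the HoxB and macrophage differences go together over the runs was not tested. With the macrophage mean as a covariate beside the runs, the differences were 0.37 for Hoxb5 and -0.26 for Hoxd8 (limma adjusted p = 0.119 and 0.223).

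**Figure D4:**
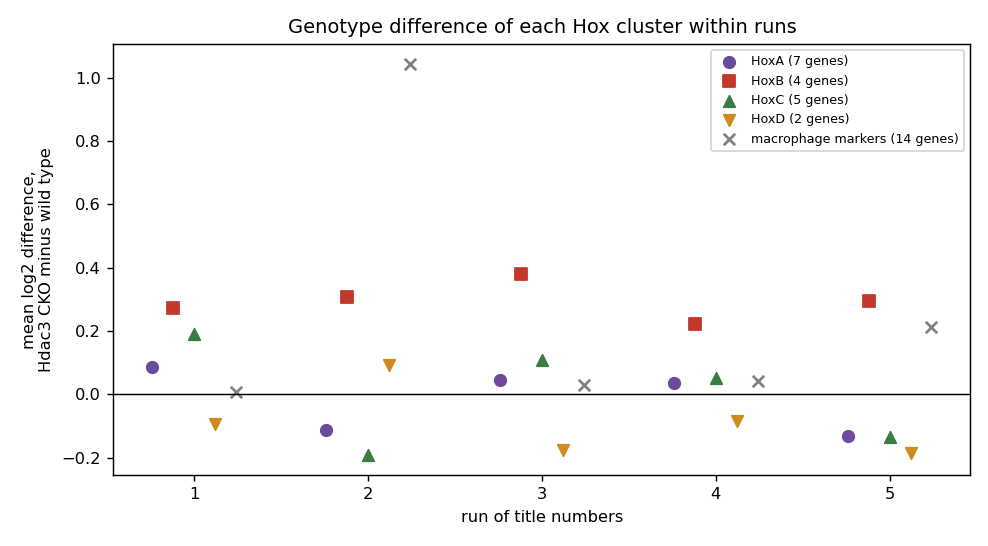
Mean log2 difference, Hdac3 CKO minus wild type (vertical axis), of the genes above background of each Hox cluster and of the macrophage markers in each run (horizontal axis). The HoxB squares lie between 0.22 and 0.38, above 0 in every run because each of their genes was higher in every run. HoxA and HoxC lie on both sides of 0, and the macrophage markers reach 1.04 in run 2.

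The third question was how far Hox levels differed between runs whatever the genotype. With genotype in the fit, 7 of 38 Hox genes differed between the 5 runs (limma F test, adjusted p under 0.05), where 20.1% of all probes did. These 7 are all among the 18 above background (38.9%), compared with 36.5% of probes above background, so the share lies near that of other probes. Hoxa5 had the widest range of run means, 0.79 log2, from 8.51 in run 5 to 9.30 in run 2 (adjusted p = 0.00455). Hoxb7 ranged from 6.65 in run 1 to 7.35 in run 4 (adjusted p = 2.15e-04) and Hoxd8 from 7.05 in run 2 to 7.56 in run 5 (adjusted p = 6.37e-05). Hoxb5 and Hoxb2 were lowest in run 5 (6.76 and 7.73) and had ranges of 0.49 and 0.44 (adjusted p = 0.00255 and 0.0132). Hoxa9 and Hoxa2 were highest in run 2 and lowest in run 5, with ranges of 0.36 and 0.32 (adjusted p = 0.00763 and 0.0459). No HoxC gene passed, although Hoxc6 had a range of 0.73 (adjusted p = 0.062). The genotype difference itself was not shown to vary between runs for any Hox gene: 0 of 38 passed the interaction test (limma, smallest adjusted p 0.393, 2 at an unadjusted p under 0.05), where 0.494% of probes did and 7.62% had an unadjusted p under 0.05.

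**Figure D5:**
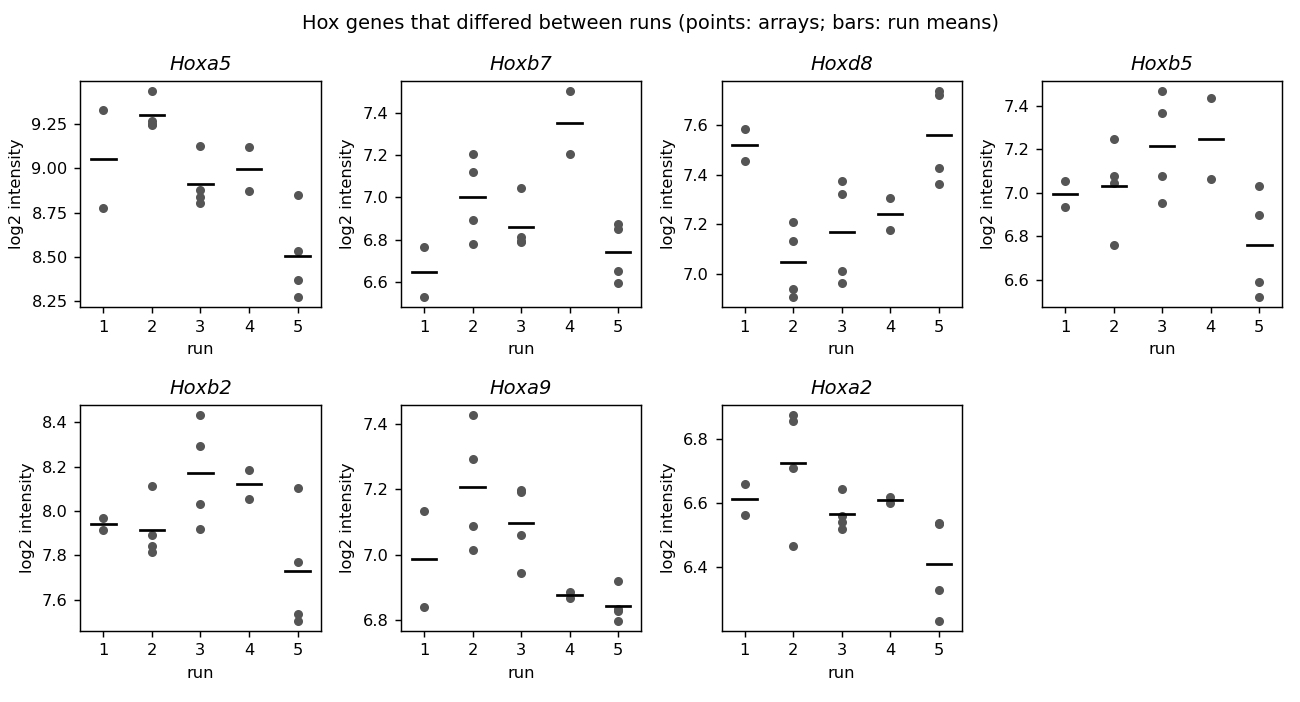
Log2 intensity (vertical axis) of the 7 Hox genes that differed between runs, in every array by run (horizontal axis), with bars at the run means. Hoxa5 (8.51), Hoxb5, Hoxb2, Hoxa9 and Hoxa2 are lowest in run 5. Hoxb7 is lowest in run 1 (6.65) and Hoxd8 in run 2 (7.05), so not all of the genes share an order of runs.

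Genes that work with or regulate Hox genes were counted in the fit with the block, where 0.218% of all probes passed, so that a count of 0 in lists of 6 to 17 genes is near the background and is no result about them. The Hox cofactor genes of the Pbx, Meis and Pknox families were above background at all 7 measured, with a median difference of 0.027 and 0 past the threshold with the block; Meis1, which binds DNA together with Hox proteins, stood at 8.85 with a difference of 0.027. Of 16 measured Polycomb genes, which keep Hox genes silent, 0 passed (median -0.0050), and the methyltransferase gene Ezh2 had a difference of -0.28 (limma adjusted p = 0.366). Of 6 measured genes of activating complexes that counter Polycomb 0 passed (median 0.0036), with Rbbp5 at 0.14 (adjusted p = 0.474). Of 11 measured upstream genes, such as those of retinoic acid and Cdx, 4 were above background and 0 passed (median 0.025). The 17 measured neighbours of the Hox clusters also held 0 that passed (median -0.015). Snx11, near HoxB, had a difference of 0.21 (adjusted p = 0.279).

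Other positional regulators were mostly at background. Of 11 limb genes only Shox2, which patterns the upper limb bones, was above it (9.27, difference -0.26, limma adjusted p = 0.415 with the block), and the forelimb gene Tbx5 and the hindlimb genes Tbx4 and Pitx1 stood at 6.27, 6.16 and 6.39. Of 13 measured genes of the cranial skeleton 4 were above background and 0 passed (median -0.027). The labels do not name the bones.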

How the data were processed

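RNA of 16 cultures had been extracted with TRIzol, labelled with biotin and hybridized by a standard Illumina protocol, per the labels. The deposited values are linear probe intensities that the authors had quantile normalized across arrays, as their equal distributions show (median 97.1 to 97.2, highest value 37892 on each array). How they were read and background corrected is not given in the sources used here. Detection calls were not used. The lowest value, 53.1, is well above 0, so changes of dim probes are compressed. The number of arrays limits the precision.

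Intensities were floored at 16 and log2 transformed. Symbols came from the platform annotation, updated by Entrez identifier to the RefSeq gene table of GRCm38.p6 (23962 of 23978 probes with a single symbol matched; 1719 are unnamed here). All 25697 probes were tested for genotype, as Hdac3 CKO minus wild type, with limma 3.58.1 in R 4.3.3 (lmFit, eBayes, two-sided, Benjamini-Hochberg). The plain fit was the principal one, with the 5 runs as a fixed block beside it. Runs were tested with an F test. Nothing in the labels says that arrays come from separate animals, so p-values measure only the spread between them. Exact permutation tests used all arrangements. The code was tested on simulated data. Named genes are Hox genes past the threshold with their paralogs, and, among those above background, up to 5 per direction with the smallest p with the block and up to 8 that differed most between runs. Members, lists and tests were chosen with earlier results of these data known. Alternatives were the block, array weights, offset, filter, normalization, covariates and left-out arrays.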

Additional observations from a re-analysis of the deposited data

How the results depend on the processing

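The 11 genes above the level in each of 16 arrays compare with 18 by the mean, and other background levels gave 15 to 18 (17 to 18 without single arrays). The fixed run block gave 2 Hox genes and 56 probes past the threshold, against 0 and 0 without it. With the block, subtracting 50 from the intensities gave 1 and 37 (Hoxd8 at an adjusted p of 0.0648), testing only probes above background 2 and 66, and Eif2s3y as a covariate 2 and 26. The macrophage covariate gave 0 and 8, leaving out run 2 gave 0 and 5, and counting any probe of a gene gave 2. Without single arrays, 0 to 2 Hox genes and 12 to 149 probes passed with the block, and 0 and 0 without it. The probe count was 12 without KO15, 13 without KO16, WT13, WT14 or WT21, 16 without WT42, 32 without KO24 or KO47, 34 without WT22 and 149 without KO32 or WT30. Runs 1 and 4 hold 1 array of each genotype. With the block, leaving out KO32 or WT30 therefore removes all of run 4 from the comparison, and leaving out KO7 or WT5 all of run 1. The median Hox difference was -0.027 to 0.076 without single arrays (-0.018 to 0.053 with the block), 0.098 without WT13 and WT14, and 0.13 with the macrophage covariate. Without genotype in the fit 3 Hox genes differed between runs, and 6 to 7 without single arrays. The settings that join the block with the subtraction, the filter on dim probes, the left-out run or any probe were chosen after seeing the data. The causes were not tested. Hoxb2, Hoxb4, Hoxb5, Hoxb7 and Hoxa11 stayed higher and Hoxd8, Hoxa9, Hoxa2, Hoxc10 and Hoxc8 lower in all 47 settings. These genes were chosen by their p in the same arrays, and several settings give the same difference by design. The kept signs are therefore not separate support. Of the 13 genes followed through the settings, Hoxa5 and Hoxb8, near 0, changed sign, and the other Hox genes were not followed. Hoxa5 ran from -0.041 to 0.11 without single arrays (-0.061 to 0.079 with the block). Hoxb8 was 2.2e-05 with 5 pairs, 0.0078 without run 2 with or without the block, 0.015 with the macrophage and 6.1e-04 with the Eif2s3y covariate. It ran from -0.038 to -2.3e-04 without single arrays (-0.047 to 0.0075 with the block). No paired analysis by replicate number was possible because the title numbers differ between genotypes.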
